A study of Mus musculus with 9 samples.

Results

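The Hes and Hey genes encode small basic helix-loop-helix repressors, and 7 of them were followed in the midbrain of fetuses that lacked Gpr161 in the Wnt1 lineage: Hes1, Hes3, Hes5, Hes6, Hey1, Hey2 and Heyl. They were chosen by symbol as family members, with earlier results of these data known, from a table with 27360 rows. All 7 were among the 14029 genes tested. Hes3 is also a gene that the study itself put forward from these libraries, so its rise is not independent evidence. The question was whether Hes3 moved as the members driven by Notch did.

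Notch is a receptor that is cut when a ligand on a neighboring cell binds it. The released fragment enters the nucleus and joins the DNA-binding protein RBPJ, and the complex switches on Hes1, Hes5, Hey1, Hey2 and Heyl. These repressors recruit Groucho corepressors of the Tle family and hold down proneural genes, which keeps neural progenitors from differentiating. Hes6 is the exception in function, since it is found in cells that have begun to differentiate and opposes Hes1. Hes3 is known from the isthmus, the boundary of midbrain and hindbrain whose cells secrete Fgf8, and from the early neural tube, where its expression does not depend on Notch in the way that of Hes5 does.

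The libraries were made from poly-A RNA of midbrain tissue that was dissected from C57BL/6 fetuses at E13.5, with 3 libraries per genotype. The floxed control carried Gpr161f/f and no Cre, the Cre control carried Gpr161f/+;Wnt1-Cre, and the cKO carried Gpr161f/f;Wnt1-Cre. The labels of the cKO libraries spell the gene Gpt161, which was read as Gpr161, and the columns named KO in the table were taken as the samples described as Homo. Every fetus thus had at least 1 floxed allele, and the Cre control differed from the floxed control in both the transgene and the number of floxed alleles. Gpr161 is a receptor of the primary cilium that restrains Shh signaling. The Wnt1-Cre driver is first active in the dorsal midbrain, and it is active in the neural crest. The study's reporter staining showed it later over much of the neural tube, with the midbrain and hindbrain. Midbrain cells outside the Wnt1 lineage kept the gene, and their share in the tissue is not known here. In bulk tissue, fewer cells of a type and less RNA per cell cannot be told apart. The labels do not say whether each library was a single fetus or a pool, and the p-values measure the spread between these libraries.

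The deposited values are on a log2 scale, were normalized between libraries by the authors, and lie between -2.12 and 17.95. Read counts are not part of it, so how deeply each library was sequenced is unknown. Gpr161 read 11.8, 11.74 and 11.78 in the floxed control libraries, 11.77, 11.91 and 11.96 in those of the Cre control and 11.74, 11.95 and 11.94 in those of the cKO. The deleted gene was thus not lower in the libraries labelled cKO. With 1 value per gene and no exons resolved, a deleted exon could not be seen here, and Gpr161 checks nothing about the labels. All 8 midbrain markers were measured, with a summed log2 level of 13.83 to 14.01 in the floxed controls, 13.97 to 14.17 in the Cre controls and 13.96 to 14.05 in the cKO libraries. Such a sum is led by the most expressed genes, so single markers can differ within it.

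RBPJ binds a short core, which was searched as TGGGAA on both strands (TTCCCA on the other), in the 250 bases before each gene's start. RefSeq promoter entries (GRCm38.p6) matched 3 of the 7 members, Hes5, Hes6 and Hey2, while Hes1, Hes3, Hey1 and Heyl are named only. The stretches of Hes5 and Hey2 are shown because they hold the core, which is written in capitals, and both are given 5′ to 3′ on the strand of the gene.
Hes5 (chr4:154960673-154960922, plus strand): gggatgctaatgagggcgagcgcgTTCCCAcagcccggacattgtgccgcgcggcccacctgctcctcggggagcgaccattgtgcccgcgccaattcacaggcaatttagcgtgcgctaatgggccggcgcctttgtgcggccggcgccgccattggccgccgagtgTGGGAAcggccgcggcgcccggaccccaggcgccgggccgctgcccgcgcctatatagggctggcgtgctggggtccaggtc
Hey2 (chr10:30842784-30843033, minus strand): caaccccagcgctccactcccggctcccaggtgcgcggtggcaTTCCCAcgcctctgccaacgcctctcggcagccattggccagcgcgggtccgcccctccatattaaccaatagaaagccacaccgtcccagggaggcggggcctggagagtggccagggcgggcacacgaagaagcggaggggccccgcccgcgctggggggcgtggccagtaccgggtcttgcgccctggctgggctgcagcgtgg

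In the Hes5 promoter the core occurred 2 times, at bases -226 to -221 and -82 to -77 relative to the start, once on each strand. Hey2 had 1 match, at -207 to -202. The windows of the 2 listed starts of Hes6 held 0 matches. The core was present in 21.6% of 32851 promoters of the same length and occurred at least 2 times in 2.77% of them. A Gli core (TGGGTGGTC, both strands), the site of the Shh effectors, was found in 0.225% of promoters and in 0 of these windows. Such matches describe letters and not bound sites.

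Hes3 had the widest separation between genotypes of the 7 members. Its log2 values were 7.23, 7.11 and 7.23 in the floxed controls, 8.03, 7.57 and 7.57 in the Cre controls, and 8.71, 8.75 and 8.68 in the cKO libraries. The lowest cKO library lay 0.65 above the highest control library, and Cre control 1 stood above the other Cre controls. Hes3 (chr4:152285972-152291662, minus strand, GRCm38) was 2.88-fold above the floxed control in the cKO (log2 fold change 1.52 ± 0.11 SE, n = 3, limma, adjusted p = 0.000127). It was 1.99-fold above the Cre control (0.99 ± 0.11 SE, n = 3, limma, adjusted p = 0.00183). Hes3 was the only member that passed as a differentially expressed gene (DEG), for which the fold change had to exceed 1.5 and the adjusted p to lie under 0.05, and it did so against both controls. DEGs on the higher side made up 1.34% of all genes tested in the comparison with the floxed control and 0.335% in that with the Cre control.

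**Figure D1:**
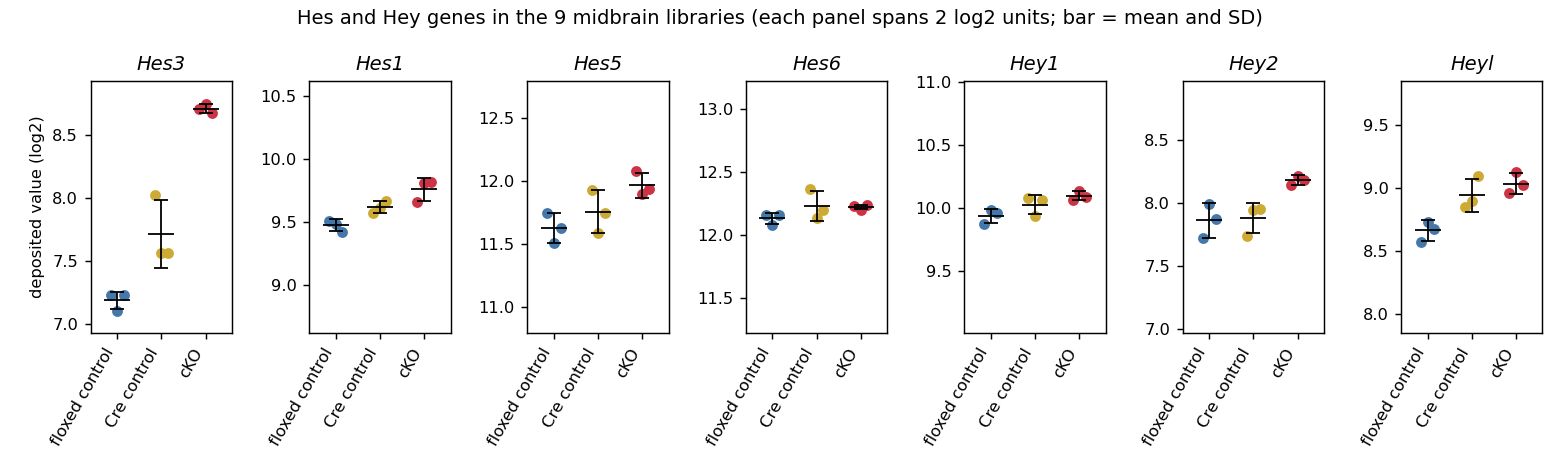
Deposited log2 value of each Hes and Hey gene in the 9 libraries, with 1 point per library and the mean and SD (n = 3) of each genotype as bars; each panel has its own axis that spans the same 2 log2 units. The cKO points of Hes3 sit between 8.68 and 8.75, above the control points at 7.11 to 8.03, while the other panels show smaller differences.

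Hes1 and Hes5 are the main effectors of Notch in neural progenitors. Hes1 (chr16:30064384-30067796, plus strand) had log2 values of 9.51, 9.49 and 9.42 in the floxed controls, 9.57, 9.61 and 9.67 in the Cre controls and 9.66, 9.81 and 9.82 in the cKO libraries. The groups lay in this order, with the lowest cKO library just under the highest Cre control. Hes1 rose by 0.29 (log2) against the floxed control (SE 0.056, n = 3, limma, adjusted p = 0.00362). Its 0.15 over the Cre control did not pass (limma, adjusted p = 0.114).

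Hes5 (chr4:154960923-154962371, plus strand) was read at 11.75, 11.51 and 11.63 in the floxed controls, 11.93, 11.59 and 11.75 in the Cre controls and 12.08, 11.9 and 11.94 in the cKO libraries. Cre control 1 reached into the cKO range. The gene rose against the floxed control by 0.34 ± 0.09 SE (n = 3, limma, adjusted p = 0.014), a call that was lost without cKO 1 (0.29, adjusted p = 0.0593). The difference from the Cre control was 0.21 (limma, adjusted p = 0.149), and without Cre control 1 it was 0.3 and passed (adjusted p = 0.0259). An antisense gene, Gm20421 (chr4:154960770-154961678), overlaps Hes5, and since it is not given whether counting used the strand, reads of the pair cannot be told apart.

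The Hey genes are Notch targets best known from blood vessels and the heart, and Hey1 and Hey2 are also made in neural progenitors. Hey2 (chr10:30832359-30842801, minus strand) had log2 values of 7.72, 7.99 and 7.87 in the floxed controls, 7.74, 7.94 and 7.95 in the Cre controls and 8.14, 8.21 and 8.18 in the cKO libraries. Next to Hes3 it was the only member whose cKO libraries lay above all 6 controls, by 0.15. Of all genes tested, 14.7% had no such overlap on the higher side. Hey2 rose by 0.32 ± 0.08 SE against the floxed control (n = 3, limma, adjusted p = 0.0114) and by 0.3 ± 0.08 SE against the Cre control (n = 3, limma, adjusted p = 0.0456). The second call was lost whenever a cKO or Cre control library was left out, with limma adjusted p of 0.0584, 0.0724 and 0.0913 without Cre control 1, 2 and 3, and of 0.122, 0.119 and 0.0943 without cKO 1, 2 and 3. It was also lost with no filter on low values (adjusted p = 0.0617) and in a fit of only these 6 libraries (adjusted p = 0.0611).

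Hey1 (chr3:8663359-8667256, minus strand) gave 9.88, 9.99 and 9.96 in the floxed controls, 10.08, 9.94 and 10.07 in the Cre controls and 10.07, 10.14 and 10.09 in the cKO libraries. Its rise against the floxed control was the smallest that passed, 0.16 ± 0.051 SE (n = 3, limma, adjusted p = 0.0358). The call was lost without floxed control 1 (0.12, adjusted p = 0.128) or 3 (0.16, adjusted p = 0.0782) and without cKO 1 (0.17, adjusted p = 0.0613), 2 (0.14, adjusted p = 0.115) or 3 (0.16, adjusted p = 0.0729). Centring the libraries on their medians (0.14, limma adjusted p = 0.0555) and quantile normalization (0.14, adjusted p = 0.0611) ended it as well. Hey1 differed from the Cre control by 0.07 (limma, adjusted p = 0.389).

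Heyl (chr4:123233556-123249875, plus strand) had log2 values of 8.57, 8.73 and 8.67 in the floxed controls, 8.85, 8.89 and 9.09 in the Cre controls and 8.96, 9.12 and 9.02 in the cKO libraries. Every Cre control library lay above every floxed control library, as also for Hes1 and Hes3, and the Cre control and cKO overlapped. The share of all genes tested with such a separation of the controls was not counted. Heyl rose by 0.38 ± 0.075 SE against the floxed control (n = 3, limma, adjusted p = 0.00386), and had a log2 fold change of 0.092 against the Cre control (limma, adjusted p = 0.439).

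Hes6 (chr1:91411483-91414038, minus strand) was the member with the smallest difference. Its log2 values were 12.16, 12.08 and 12.16 in the floxed controls, 12.36, 12.13 and 12.2 in the Cre controls and 12.23, 12.2 and 12.24 in the cKO libraries. Hes6 differed from the floxed control by 0.09 on the log2 scale (95% interval -0.035 to 0.21, limma, adjusted p = 0.229) and from the Cre control by -0.0039 (95% interval -0.13 to 0.12, adjusted p = 0.971).

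Counted together, 6 of the 7 members rose against the floxed control and the median difference of the 7 was 0.32 on the log2 scale, where 19.5% of all genes tested rose, 18.8% fell and the median was 0.011. Against the Cre control 2 of 7, Hes3 and Hey2, rose and the median was 0.15, where 4.86% of all genes rose, 4.85% fell and the median was 0.012. At an unadjusted limma p under 0.05, 4 of 7 were higher there, with Hes1 and Hes5 added, beside 4109 of 14029 genes in either direction. Between the controls 0 of 7 passed in limma, with a median of 0.13, where 0.0499% of all genes tested were higher in the Cre control, 0.00713% were lower and 0.0285% were DEGs on the higher side. At an unadjusted p under 0.05, Hes1, Hes3 and Heyl (3 of 7) were higher in the Cre control, beside 2451 of 14029 genes in either direction. Hes3 differed between the controls by 0.53 (95% interval 0.29 to 0.78, limma, adjusted p = 0.139), and without Cre control 1 by 0.38, which passed (adjusted p = 0.045). The other 6 members differed there by 0.021 to 0.29. The comparisons share their control samples, so their values are not independent of each other.

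**Figure D2:**
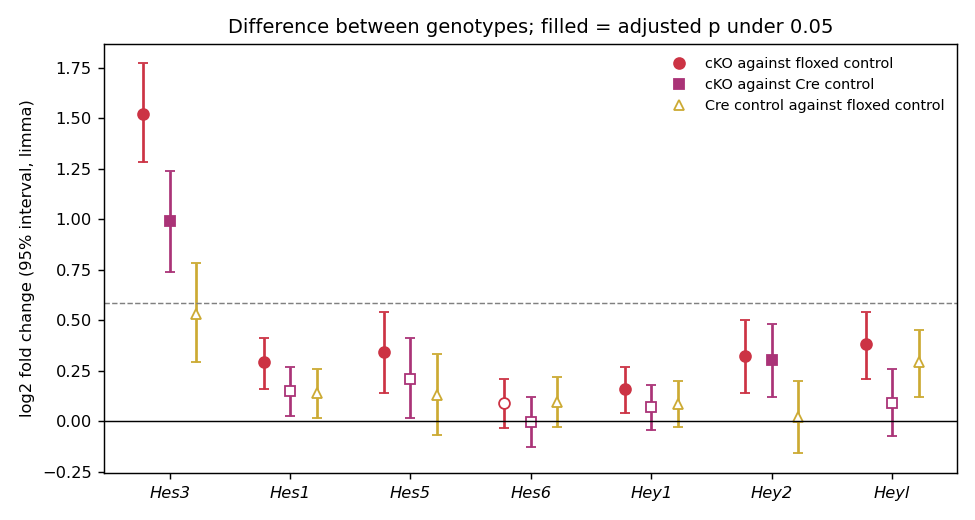
Log2 fold change of each member with its 95% interval (limma, n = 3 per genotype) for cKO against the floxed control, cKO against the Cre control and the Cre control against the floxed control; filled symbols passed the adjusted p of 0.05 and the dashed line marks a fold change of 1.5. Hes3 lies above the line in both cKO comparisons, at 1.52 and 0.99, and the other members stay under it.

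Whether Hes3 moved as the other members did was tested on the difference itself, the log2 value of Hes3 minus that of the other member in the same library. Against Hes1 this difference was -2.29 ± 0.096 (SD, n = 3) in the floxed controls, -1.89 ± 0.31 in the Cre controls and -1.05 ± 0.096 in the cKO libraries. Against Hes5 it was -4.44 ± 0.066 (SD, n = 3), -4.04 ± 0.14 and -3.26 ± 0.12 in the same order. Hes3 thus gained on both Notch effectors, by 1.04 on Hes1 and by 0.98 on Hes5, when the cKO was compared with the 6 control libraries. The gain was 1.14 on Hey1, 0.95 on Hey2 and 1.02 on Heyl, and it was 1.21 on Hes6. In each of the 6 pairs all 3 cKO libraries lay above all 6 controls. The two-sided exact permutation test over 84 partitions gave p = 0.0238 for every pair, the smallest it can give, and 0.0238 after Benjamini-Hochberg adjustment over the 6 pairs. All 6 pairs share the values of Hes3 and are not independent. Hes3 was also known from these libraries to be raised, and its own cKO values lay 0.65 above the highest control. These p-values are therefore not independent evidence that Hes3 differs, and the gains describe by how much it did in these libraries.

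Taken against each control alone, Hes3 gained 1.24 on Hes1, 1.18 on Hes5, 1.37 on Hey1, 1.2 on Hey2 and 1.15 on Heyl in cKO over the floxed control. Over the Cre control the gains were 0.84, 0.78, 0.92, 0.69 and 0.9. With 3 libraries against 3 the exact permutation test cannot give a p below 0.1, which every one of these reached. The Cre control already stood above the floxed control in these differences, by 0.4 for Hes1 and for Hes5, 0.45 for Hey1 and 0.51 for Hey2, with no overlap of the libraries. For Heyl this step was 0.25 and the libraries overlapped (two-sided exact permutation p = 0.4).

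**Figure D3:**
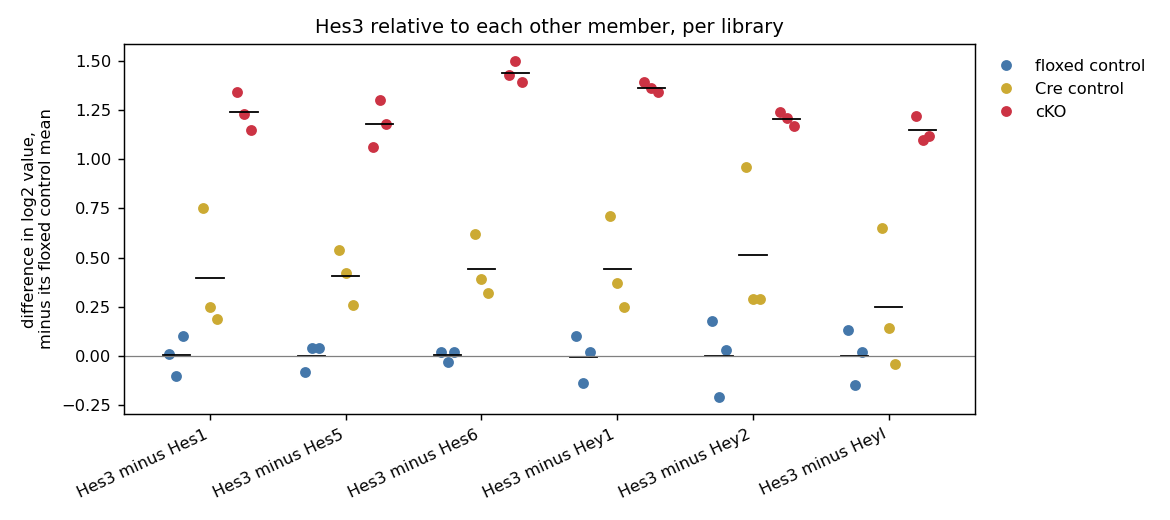
Log2 value of Hes3 minus that of each other member in every library, shifted so that the floxed control mean is 0 (vertical axis, log2 units; 1 point per library, bars are genotype means). The cKO libraries lie above all control libraries in the 6 pairs, and the Cre control libraries lie mostly between the other genotypes.

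Levels were compared between genes per kb of the longest coding transcript. On this log2 per kb scale the order in the floxed control was Hes6 at 11.72, Hes5 at 11.28, Hes1 at 8.92, Hey1 at 8.67, Hey2 at 6.51, Heyl at 6.48 and Hes3 at 6.32. The last 3 lay within 0.19 of each other, and the SDs of Hey2 (0.14) and Heyl (0.081) span the gap between this pair. In the cKO Hes3, at 7.84, had passed Heyl at 6.85 and Hey2 at 6.83, and it remained below Hey1 at 8.82. Without division by length, the cKO mean of Hes3 (8.71) was above Hey2 (8.18) but still below Heyl (9.03). Its place beside Heyl thus rests on the transcript lengths used. The levels and shares per kb also take the values as proportional to transcripts, though their transformation is not given. As a share of the 7 members on the linear per kb scale, Hes3 held 1.14% ± 0.022 (SD, n = 3) in the floxed controls, 1.53% ± 0.18 in the Cre controls and 2.78% ± 0.12 in the cKO libraries. Hes6 held 48.0% ± 0.7, 47.3% ± 0.62 and 43.5% ± 0.78, and Hes5 35.5% ± 1.5, 35.8% ± 1.3 and 38.3% ± 1.8. The family's transcripts were thus mostly Hes6 and Hes5 in all genotypes.

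Genes with a pattern like that of Hes3 were looked for by the root mean square difference between log2 values centred on each gene's mean over the 9 libraries. This measure takes the size of a change into account and is given as a description. Nearest to Hes3 were Nkx6-2 (0.164 log2 units), Fgf17 (0.194), Mgarp (0.205), Tecta (0.216), Pappa (0.217), Fgf8 (0.228), Pdlim3 (0.237), Helt (0.257), Trh (0.258) and Hhip (0.265). Nkx6-2 and Hhip are targets of Shh signaling, with Hhip binding Shh at the cell surface, and Fgf8 and Fgf17 are ligands of the isthmus. Gli1, a transcription factor and target of Shh signaling, came at rank 13 of 14028 genes and Il17rd, a feedback inhibitor of Fgf signaling, at rank 18. Wnt1, also a gene of the isthmic organizer, lay farther off at rank 3556. The Notch-driven members came at rank 594 (Hes5), 1025 (Heyl), 1182 (Hey2), 1283 (Hes1) and 2834 (Hey1), and Hes6 at 4121. Nrarp, a Notch target outside the family, lay nearer than all of these at rank 312. Because size counts, a gene that changes little lies far from Hes3 whatever the shape of its pattern over the genotypes. For Hes3 the Cre control lay 0.53 and the cKO 1.52 above the floxed control. These steps were 0.13 and 0.34 for Hes5, 0.14 and 0.29 for Hes1 and 0.09 and 0.16 for Hey1. They were 0.02 and 0.32 for Hey2, 0.29 and 0.38 for Heyl, 0.33 and 1.48 for Nkx6-2 and 0.05 and 1.34 for Hhip. Likeness in shape apart from size was not tested.

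**Figure D4:**
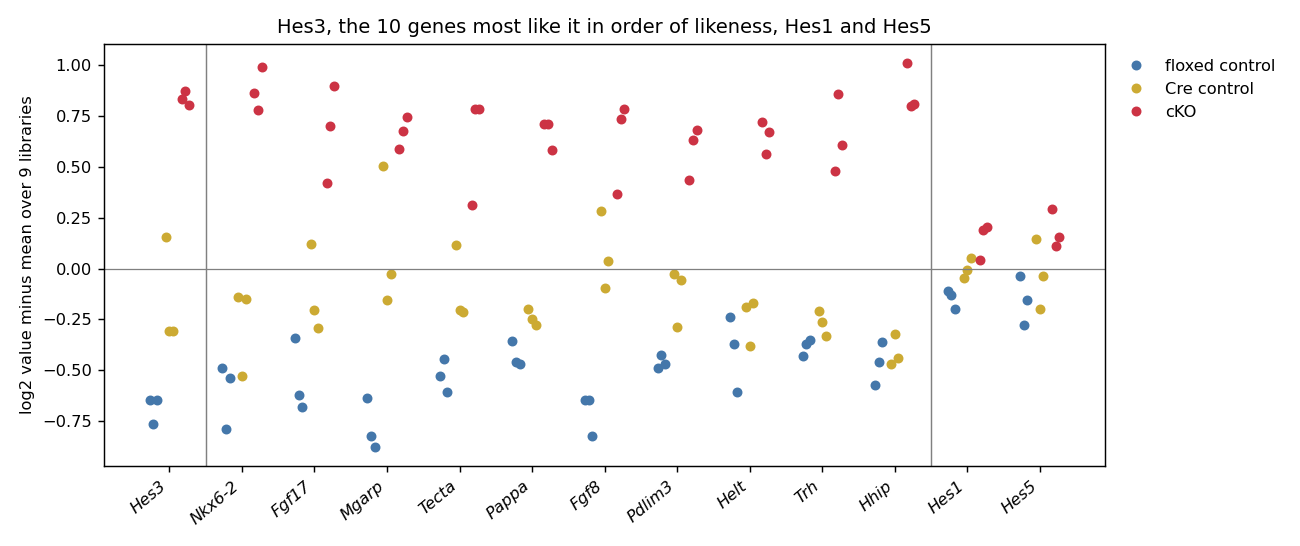
Log2 value minus the mean over 9 libraries (vertical axis) for Hes3, the 10 genes most like it in order of likeness, and Hes1 and Hes5 for comparison; each point is a library and colors are genotypes. In Hes3 and the 10 genes the cKO points lie above all control points, and in Hes1 and Hes5 they overlap those of the Cre control. The 10 genes were picked for their likeness to Hes3 in these libraries, so their shared pattern follows from that choice.

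The other members had other neighbors. Nearest to Hes1 were Fam122b, Ak3 and Bag2 (0.0366 to 0.0469), and nearest to Hes5 were Gadd45g (0.0415), a gene of early neurogenesis, 1700019D03Rik (0.0449) and Suv39h2 (0.0478). Hes6 lay nearest to Slc52a2, Crls1 and Cacybp (0.0205 to 0.0225), and Hey1 nearest to Gstz1, Prps1l3 and Epdr1 (0.0232 to 0.0278). Hey2 lay nearest to Plcb3, Fam210b and Abi3 (0.0437 to 0.049). Heyl lay nearest to Flt1 (0.0543), a VEGF receptor of endothelial cells, Flrt1 (0.0583) and the proneural gene Neurog2 (0.0603). Small distances are common among genes that change little, so these values cannot be set against those of Hes3.

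Of the relatives outside the 7, Helt is a repressor of the midbrain that directs GABAergic neurons. Its log2 values were 8.28, 8.15 and 7.91 in the floxed controls, 8.33, 8.14 and 8.35 in the Cre controls and 9.24, 9.08 and 9.19 in the cKO libraries. The lowest cKO library lay 0.73 above the highest control. Helt rose by 1.06 ± 0.096 SE against the floxed control (n = 3, limma, adjusted p = 0.000196) and by 0.9 against the Cre control (limma, adjusted p = 0.00167). Hes7, the oscillator of the somites, stayed between 4.91 and 5.08, and its difference from the floxed control was -0.12 (limma, adjusted p = 0.0764). Hes2, at 4.55 to 4.77, was not tested.

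The Notch pathway outside the family was read from a list of 40 genes, all of which were tested. Against the floxed control 10 rose, 4 fell and 26 did not pass, and the median was 0.041 on the log2 scale. These are 25% and 10% of the list, beside 19.5% and 18.8% of all genes tested. In the comparison with the Cre control 4 rose, 0 fell and 36 did not pass, and the median was 0.043. Of the 40, 12 had an unadjusted limma p under 0.05, beside 4109 of 14029 genes tested, in either direction. The 4 are 10% of the list, beside 4.86% of all genes tested. Between the controls 0 of 40 passed in limma and the median was -0.0021. At an unadjusted limma p under 0.05, 6 of 40 passed there, beside 2451 of 14029 genes tested.

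Nrarp, which Notch induces and which dampens Notch, had log2 values of 11.83, 11.85 and 11.89 in the floxed controls, 12, 11.78 and 11.9 in the Cre controls and 12.32, 12.23 and 12.26 in the cKO libraries. Its cKO libraries lay 0.23 above the highest control. It rose by 0.42 against the floxed control (limma, adjusted p = 0.000702) and by 0.37 against the Cre control (limma, adjusted p = 0.00693). The ligand Jag1 rose by 0.39 (limma, adjusted p = 0.000445) and 0.19 (adjusted p = 0.0294) against the floxed and the Cre control. Lfng, a glycosyltransferase that tunes the response of Notch to its ligands, rose by 0.29 (limma, adjusted p = 0.00257) and 0.23 (adjusted p = 0.0276). The receptor Notch3, which is prominent in mural cells of vessels, rose by 0.25 (limma, adjusted p = 0.004) and 0.22 (adjusted p = 0.0294). These 4 were the genes of the list that rose against both controls, and the number called over the Cre control fell to 1 when Cre control 2 or 3 or cKO 1 or 2 was left out and reached 12 without Cre control 1.

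By role, 2 of 7 ligands rose against the floxed control and 1 fell, where 19.5% of all genes tested rose and 18.8% fell. The ligand that fell was Dner, a neuronal transmembrane protein, with a difference of -0.62 on the log2 scale (limma, adjusted p = 0.00452), and it was the only DEG of the list. Of 4 receptors 1 rose, and Notch1 had a log2 fold change of 0.04 (limma, adjusted p = 0.755). Of 16 modifiers and processing enzymes 2 rose and 2 fell. Of 7 nuclear factors 2 rose, and RBPJ itself, as Rbpj, had a log2 fold change of 0.00013 (limma, adjusted p = 0.999). Of the 5 Groucho genes 2 rose and 1 fell.

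**Figure D5:**
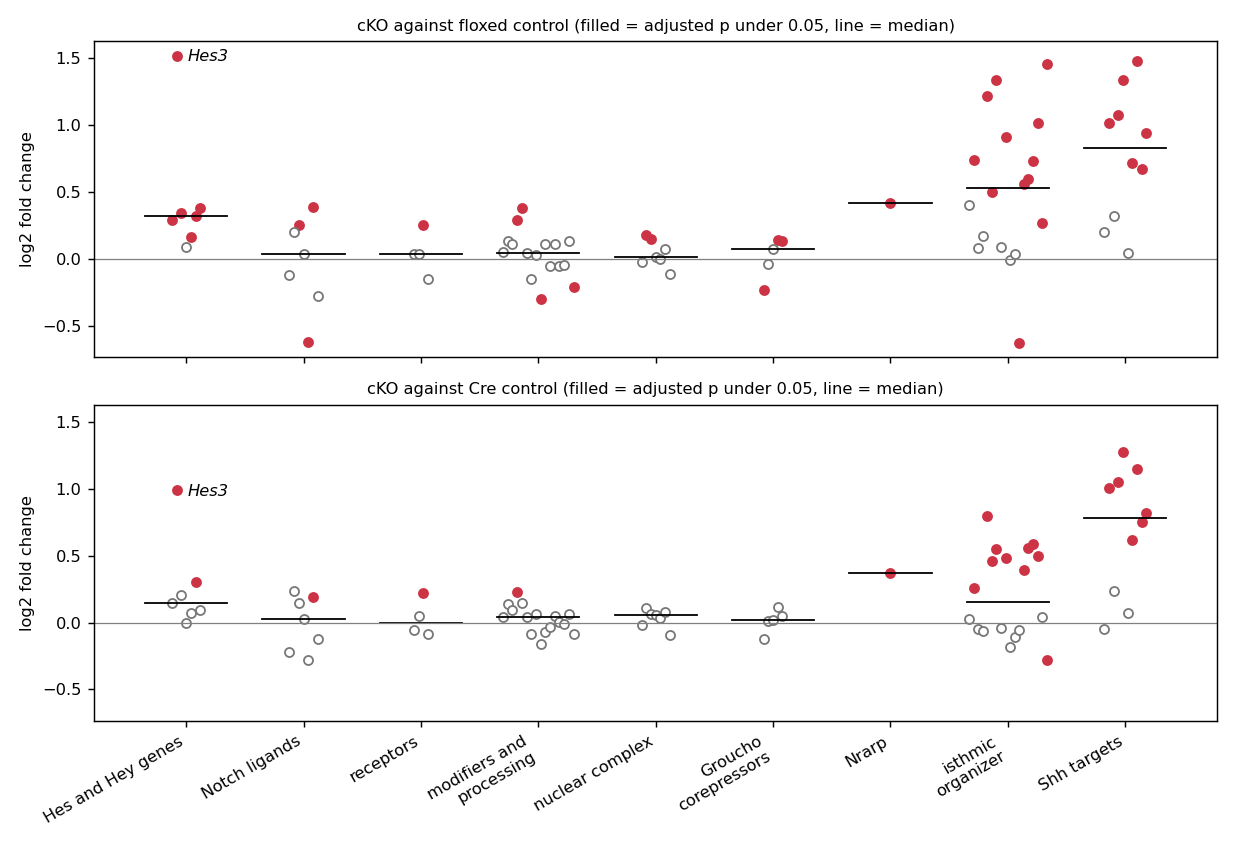
Log2 fold change (vertical axis, limma) of the 7 members, of the genes of the Notch list by role, and of the isthmic organizer and Shh target lists, with lines at the medians, for cKO against the floxed control and cKO against the Cre control in separate panels with the same scale; filled points passed the adjusted p of 0.05. Hes3 stands above the other members at 1.52 and 0.99, and the Notch list has medians of 0.041 and 0.043. The isthmic genes reach up to 1.46 and 0.8 and the Shh targets up to 1.48 and 1.28. The isthmic value of 1.46 is that of Wnt1, which was also raised, by 1.75, in the Cre control over the floxed control.

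Lists of the surroundings in which these repressors act were counted in the same fit, where 19.5% of all genes tested rose and 18.8% fell in the first cKO comparison and 4.86% rose and 4.85% fell in the second, that with the Cre control. Of 10 targets of Shh signaling 7 rose against each control, with medians of 0.83 and 0.79 on the log2 scale. All 7 were DEGs against both, among them Nkx6-2 (1.48 over the floxed and 1.15 over the Cre control), Hhip (1.34 and 1.28), Gli1 (1.08 and 1.05), Fgf15 (1.02 and 1.01), Nkx2-2 (0.72 and 0.62) and Ptch1 (0.67 and 0.75). Of 18 genes of the isthmic organizer 11 rose and 1, Pax2, fell (-0.63) against the floxed control (median 0.53). In the comparison with the Cre control 9 rose and 1, Wnt1, fell (-0.28), with a median of 0.15. Wnt1 was raised in both genotypes with the transgene, by 1.46 in the cKO and by 1.75 in the Cre control over the floxed control. Between the controls 2 of these 18 genes, with Wnt1 among them, were higher in the Cre control and 0 were lower. Of all genes tested, 0.0499% were higher and 0.00713% lower there. The difference between the controls was above 0 for 17 of the 18, with a median of 0.2. For Fgf8 it was 0.79 (limma, adjusted p = 0.0755). Fgf17 rose by 1.22 and 0.8 and Sp8, a transcription factor that sustains Fgf8, by 0.73 and 0.59, and both were DEGs against both controls. Of 12 progenitor genes 7 rose against the floxed control (median 0.27) and 6 against the Cre control (median 0.17), among them Hmga2, a chromatin protein of young progenitors, by 0.85 and 0.75. The proneural and early neurogenic genes, many of them held down by Hes proteins, split, with 4 of 14 higher and 4 lower against the floxed control and a median of -0.017. Only Btg2 of the 14 rose over the Cre control, by 0.27 (limma, adjusted p = 0.0259).

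Since Hey1, Hey2, Heyl and Notch3 are also expressed in vessels, markers of other cell types were read beside them. Among all genes tested, 19.5% rose and 18.8% fell against the floxed control, and 4.86% rose and 4.85% fell against the Cre control. At an unadjusted limma p under 0.05 these comparisons had 6743 and 4109 of 14029 genes, in either direction. Of 10 endothelial markers 6 rose against the floxed control and 0 of 10 passed against the Cre control in limma (2 at an unadjusted p under 0.05). Their summed log2 level was 12.83 to 13.18 in the floxed controls, 12.97 to 13.29 in the Cre controls and 13.23 to 13.33 in the cKO libraries. Of 8 mural markers 2 rose against the floxed control, with summed levels of 12.89 to 13.19, 12.91 to 13.25 and 13.29 to 13.42 in the same order. Of 6 markers of meninges and mesenchyme 5 rose, with 14.05 to 15.05, 14.47 to 15.23 and 15.21 to 15.26. Of 6 erythroid markers 3 rose over the floxed control and 2 over the Cre control, with 15.95 to 16.64, 16.2 to 16.46 and 16.42 to 17.47. Of 4 hindbrain markers 3 fell against the floxed control, with 7.86 to 8.71, 7.3 to 7.74 and 7.49 to 7.54, and 0 of 4 passed against the Cre control in limma, also at an unadjusted p under 0.05. Of 4 choroid plexus markers 1 fell, with 12.35 to 13.98, 11.81 to 13 and 11.81 to 12.35. For the 5 macrophage markers 0 passed in limma (2 against the floxed and 0 against the Cre control at an unadjusted p under 0.05), and their sums were 10.86 to 11.09, 10.99 to 11.12 and 11.08 to 11.22. Of the 8 midbrain markers 1 rose and 1 fell against the floxed control, with log2 differences of -0.48 to 0.32. Against the Cre control 1 of these 8 rose and 0 fell. No marker of these lists had a mean of 0 over the 9 libraries, which was not examined per genotype. The part of these cells in the differences of the Hes and Hey genes was not tested.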

How the data were processed

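RNA from E13.5 midbrain (9 libraries, 3 genotypes with 3 libraries each) was sequenced by the authors from poly-A selected NEBNext Ultra RNA libraries. The deposited table holds log2 values, which the authors had normalized between libraries; the transformation is not given in the sources used here. The submitters' processing notes name FastQC 0.10.1, kallisto 0.46.1, DESeq2 and mm10. The values are compressed at low expression, with a median SD within a genotype of 0.0378 at means of 2 to 4 and 0.0919 at 6 to 8, so fold changes of weakly expressed genes are understated. Depth is unknown, and intervals cover the spread between libraries.

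A gene was tested if it had a name and reached 1 cpm, taken on the linear values, in 3 or more libraries (14029 of 27360 rows; the minimum is 4.73 to 4.78 on the log2 scale). Of the rows, 5764 carry no gene name, 4840 are at 0 in every library and 118 repeats of a symbol were dropped. With limma 3.58.1 in R 4.3.3, a mean per genotype was estimated from the 9 libraries together (eBayes with a trend, two-sided, Benjamini-Hochberg over all genes tested). Exact permutation tests used Python 3.11.15 with scipy 1.17.1. In simulated data 200 of 14029 genes were changed by 1 on the log2 scale. Of these, limma recovered 98.5% as DEGs in cKO against the floxed control, 98.0% in cKO against the Cre control and 98.5% between the controls. Smaller changes, such as those of the members other than Hes3, were not simulated, so these shares do not cover them. Positions and transcript lengths come from GENCODE M21 (GRCm38) and promoters from RefSeq.

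The members and lists were chosen with earlier results of these data known. Named were the 7 members, Hes2, Hes7, Helt, Gpr161, Nrarp, Notch genes that passed against both controls or were DEGs, DEGs of the context lists against both controls, and the genes most like each member (10 for Hes3, 3 for the others). Notch1, Rbpj, Gm20421, Gli1 and Il17rd (for their ranks), Pax2, Wnt1 and Btg2 were named after their values were seen. Some genes covered by this rule are not reported here. The Groucho gene Aes appears under its current symbol Tle5. Alternatives were another filter, another set of libraries, the replicate number as a block, eBayes without a trend, other scalings and leaving out each library.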

Additional observations from a re-analysis of the deposited data

How the results depend on the processing

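Hes3 kept its direction and its call in the 13 alternatives of each cKO comparison, with log2 fold changes of 1.48 to 1.55 against the floxed control and 0.91 to 1.14 against the Cre control. Its difference between the controls passed only without Cre control 1 (0.38, limma, adjusted p = 0.045), which moved the count of members there from 0 to 1, so the counts without 1 library ranged from 0 to 1. The count of members that passed against the floxed control was 4 to 6 when 1 library was left out and 1 with the fold limit of a DEG. Against the Cre control it was 1 to 2 without 1 library, 1 with the fold limit, 1 with no filter and 1 in the 6 libraries compared. The count of Notch genes against the Cre control was 2 in the 6 libraries compared and 1 to 12 without 1 library, and against the floxed control 10 to 12 without 1 library. The cause was not tested.

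The gain of Hes3 with the floxed control alone was 1.24 on Hes1, 1.18 on Hes5, 1.43 on Hes6, 1.37 on Hey1, 1.2 on Hey2 and 1.15 on Heyl, and with the Cre control alone 0.84, 0.78, 0.99, 0.92, 0.69 and 0.9, where the design cannot give an exact p below 0.1. Without 1 library the gains were 0.98 to 1.15 on Hes1, 0.92 to 1.05 on Hes5, 1.16 to 1.29 on Hes6, 1.07 to 1.24 on Hey1, 0.85 to 1.09 on Hey2 and 0.97 to 1.13 on Heyl; 2 cKO libraries against 6 controls cannot give an exact p below 0.0714.

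Differences near 0 that changed sign were Hes6 against the Cre control (-0.055 to 0.063 without 1 library, above 0 without Cre control 1 and, at 0.0056, without cKO 2) and Hey2 between the controls (-0.049 to 0.089, below 0 without floxed control 1, Cre control 2 or Cre control 3); none of these passed.

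After removal of the genotype means, same-numbered libraries correlated across genes by -0.027 to 0.26 (9 pairs) and others by -0.28 to 0.16 (18 pairs), and 7 of 9 libraries correlated best with their own number, a hint of a shared effect that comes from the data and not from the design. The labels name no shared litter or batch and not every same-numbered pair correlated above 0.1, so the numbers were not used as pairs. With the replicate number as a block, the counts of members were 6, 3 and 0 in the 3 comparisons, and Hes5 then passed against the Cre control (0.21, limma, adjusted p = 0.0187); no other member changed its call, and 15, 5 and 0 of the Notch list passed. Over all genes the block moved the calls from 5380 to 5683, from 1363 to 1774 and from 8 to 9. Compared within replicate numbers, the gains of Hes3 on the 6 members were 0.95 to 1.21 (exact permutation p = 0.037, the smallest the block of 27 arrangements allows).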
